A study of Mus musculus with 6 samples.

Results

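The Rab genes encode the small GTPases that direct vesicle traffic between the membranes of a cell. They were taken as every non-control probe whose deposited gene name is Rab followed by a number and, where present, a letter or a further number. This gave 55 genes read by 103 probes, of 27946 genes on the array, and each gene was read by its brightest probe, by the mean log2 signal of the 6 arrays. Of the 55 genes, 48 gave signal well above background in both replicates of some group and were tested, among 14962 genes tested in all. The names are those of the array design: Rab1, Rab2, Rab6 and Rab7l1 are now called Rab1a, Rab2a, Rab6a and Rab29. The probes of Rab7b and Rab43 carry other names in the files and were not members.

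The samples were mouse primordial germ cells made in culture from V6.5 embryonic stem cells of a mixed C57BL/6 129SV background that express Dazl-GFP-V5, a tagged form of the germ-cell RNA-binding protein DAZL. All 3 groups carry this transgene and were harvested after 12 days in differentiation medium, once feeder cells had been depleted. RNA bound to protein was fixed by ultraviolet light, and each group has 2 arrays: total input RNA with no antibody, RNA recovered with an antibody to PABP1 (the PABP1 IP), and RNA taken up with an anti-GFP antibody, which binds the tagged DAZL (the GFP IP). PABP1 is the cytoplasmic protein that coats poly(A) tails, and its IP and the input served as controls. Whether the replicates are separate cultures is not in the labels, and the spread behind the p-values may thus be technical. An IP of cells without the tag was not analysed here, and RNA bound to DAZL cannot be told apart from RNA that the GFP antibody or the beads recover by themselves.

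Rab proteins cycle between a GDP-bound state in the cytosol and a GTP-bound state on a membrane. Exchange factors (GEFs) load GTP, GTPase-activating proteins (GAPs) end the active state, and effectors such as tethers and motors bind the GTP form. A geranylgeranyl tail, added by Rab geranylgeranyl transferase with the escort protein CHM, anchors Rabs in membranes, and GDP dissociation inhibitors extract them. Each Rab marks a set of compartments, for example Rab1 and Rab2 between the endoplasmic reticulum (ER) and the Golgi, Rab5 on early endosomes, Rab11 on recycling endosomes, Rab7 on late endosomes and Rab3 on secretory vesicles. DAZL binds mainly the 3′ untranslated regions of germ-cell mRNAs.

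Each array has 43379 spots, of which 41.49% to 52.56% stood well above background, with 0 saturated. Replicate arrays correlated across probes with r between 0.981 and 0.992. Values below are scaled signals, that is, the processed signal divided by the 75th percentile of its array, so they are relative to each array's own RNA. Levels of different probes are not compared, except that the marker sums below add probes of different brightness and so mostly follow the brightest. Dazl itself had scaled signals of 0.883 and 0.807 in the input, 0.237 and 0.242 in the PABP1 IP and 9.2 and 15.0 in the GFP IP. Of 10 germ cell markers on the array 8 were well above background on both input arrays, while Ddx4 and Sycp3, markers of later germ cells, were not. Dazl is among these 8, and since all groups carry it as a transgene its signal cannot by itself mark germ cells. Markers of other cells were present too. The summed scaled signal of cardiac and smooth muscle markers (7 of 8 detected on both input arrays) was 52.6 and 54.7 in the input, 102 to 108 in the PABP1 IP and 19.8 to 21.3 in the GFP IP. Most of this sum is Myl7, at 30.0 and 27.3 in the input and 85.3 and 79.6 in the PABP1 IP, where Tnnt2, Tnni3 and Mybpc3 lay below the input. The sum of fibroblast markers (5 of 6) was 93.3 to 127 in the input, 103 to 122 in the PABP1 IP and 31.7 to 56.1 in the GFP IP. The sum of neural markers (3 of 6) was 14.0 to 15.7, 4.89 to 7.31 and 14.9 to 17.0 in the same order (in the GFP IP Tubb3 lay above and Nes below both input arrays), and that of visceral endoderm markers (1 of 8, with Afp, Alb and Ttr at background) stayed at 1.03 or below. Their part in the results on Rab genes was not tested, and a gene present in fewer cells cannot be told apart from one with less RNA per cell.

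The first comparison asked which Rab mRNAs were higher in RNA recovered with DAZL than in total RNA. Among the 48 Rab genes 15 were higher and 8 lower in the GFP IP at an adjusted p under 0.05 (limma, Benjamini-Hochberg over all genes), which is 31.2% and 16.7% of them. Over all genes 18.5% were higher and 36.6% lower. The median log2 difference was 0.08 over the Rab genes and -0.51 over all genes tested. The genes that rose most were Rab1, Rab2b and Rab6, all of the early secretory pathway. The 15 genes called higher were also called with each of 4 other scalings of the arrays. The 8 lower calls were all lost when arrays were scaled by the median of all probes (19 higher, 0 lower) or by the spike-in controls (17 higher, 0 lower), and cyclic loess gave 19 higher and 3 lower.

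**Figure D1:**
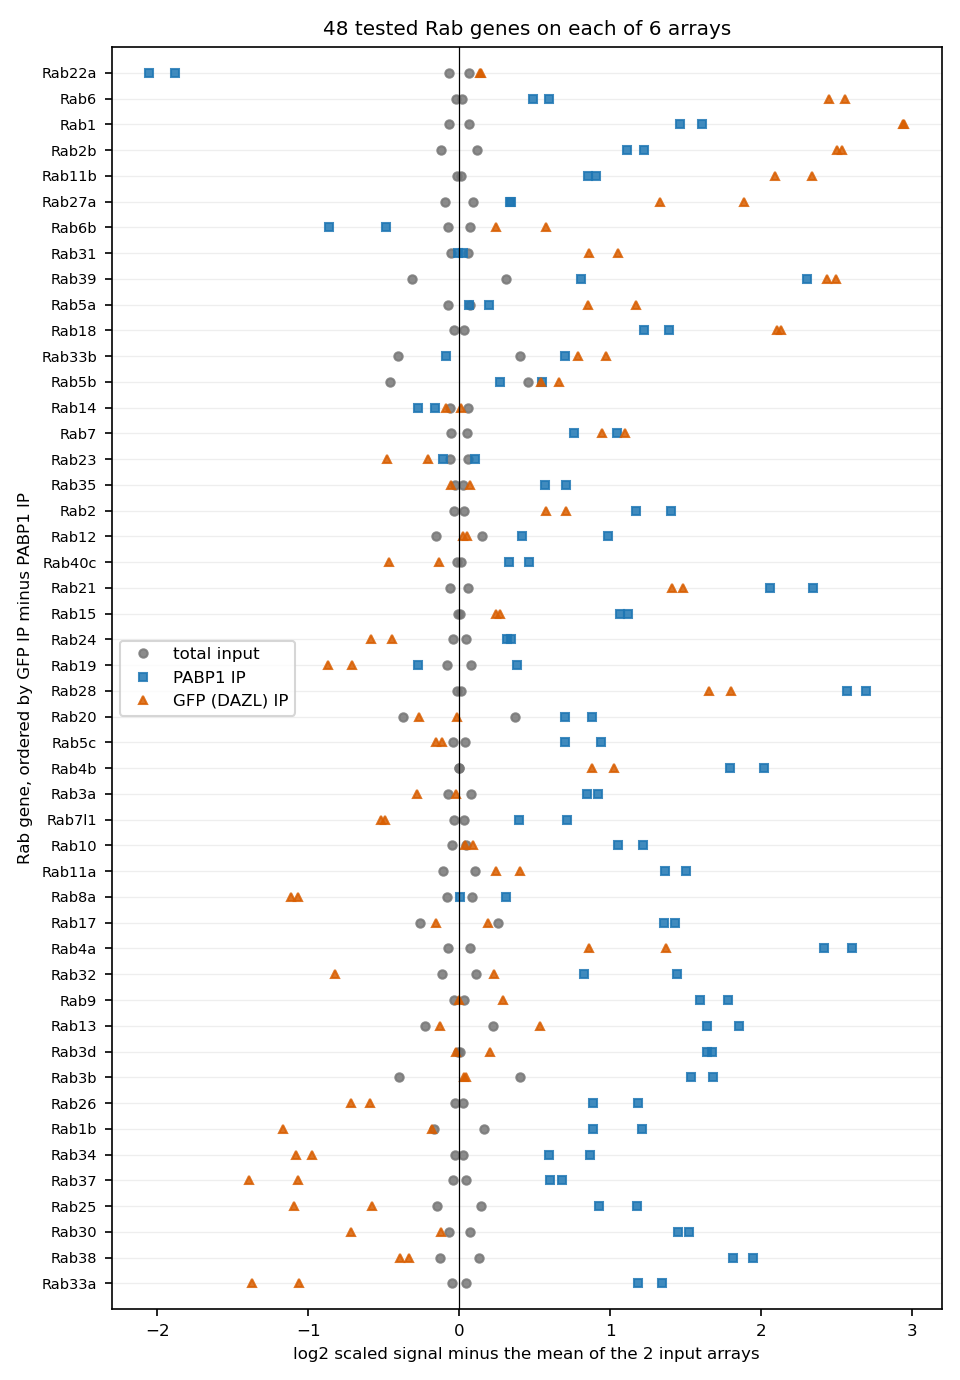
Log2 scaled signal of the Rab genes tested on each array, shown for each gene as its difference from the mean of the 2 input arrays (x axis), with genes in rows; points are single arrays of the input, PABP1 IP and GFP IP. Rab1, Rab6, Rab2b and Rab11b have both GFP IP arrays to the right of both PABP1 IP arrays, while Rab33a and Rab38 have both GFP IP arrays to the left.

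Rab1, which controls transport from the ER to the Golgi, had scaled signals of 12.3 and 11.2 in the input, 35.7 and 32.3 in the PABP1 IP and 90.0 and 90.4 in the GFP IP. The groups did not overlap, and the replicates of a group lay close together. Its log2 difference between GFP IP and input was 2.95 ± 0.16 (standard error from limma, n = 2 arrays a group, adjusted p = 0.00144), or 7.70-fold. A further Rab1 probe gave 3.24.

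Rab6, which acts within the Golgi and from Golgi to ER, had scaled signals of 8.40 and 8.65 in the input, 12.0 and 12.9 in the PABP1 IP and 46.7 and 50.1 in the GFP IP. The groups did not overlap, and the PABP1 IP was 0.54 ± 0.15 above the input on the log2 scale (limma, adjusted p = 0.0301). By the other Rab6 probe this difference was 1.49. The PABP1 IP call of the probe used was lost without any of the 4 arrays compared. It was also not kept with all of the quantile, cyclic loess and median scales. The log2 difference between GFP IP and input was 2.50 ± 0.15 (adjusted p = 0.00144), a 5.67-fold rise, and 3.11 by its other probe.

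Rab2b, a relative of Rab2, which acts between Golgi and ER, had scaled signals of 0.788 and 0.928 in the input, 1.85 and 2.0 in the PABP1 IP and 4.84 and 4.97 in the GFP IP. Its values rose in steps from input to PABP1 IP to GFP IP, with a log2 difference between GFP IP and input of 2.52 ± 0.16 (adjusted p = 0.00144). Rab18, found on the ER and on lipid droplets, had the same order: 6.20 and 5.94 in the input, 15.9 and 14.2 in the PABP1 IP, and 26.6 and 26.1 in the GFP IP. It was 2.12 ± 0.15 higher on the log2 scale in the GFP IP than in the input (adjusted p = 0.00149).

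Among endosomal Rabs, Rab11b, of recycling endosomes, had scaled signals of 3.78 and 3.71 in the input, 7.02 and 6.76 in the PABP1 IP and 18.9 and 16.0 in the GFP IP. It was 2.21 ± 0.16 higher in the GFP IP than in the input on the log2 scale (adjusted p = 0.00151). Rab21, which takes integrins into early endosomes, and Rab4a and Rab4b, of fast recycling, also rose in this comparison, by 1.45 ± 0.17, 1.12 ± 0.22 and 0.95 ± 0.17 on the log2 scale. For these genes the PABP1 IP was higher than the GFP IP, as described below. The calls of Rab4a and Rab4b were lost without either input array, with adjusted p up to 0.0672 and 0.0546.

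Rab5a, of early endosomes, had scaled signals of 6.90 and 6.22 in the input, 7.51 and 6.87 in the PABP1 IP and 11.8 and 14.8 in the GFP IP. By this probe only the GFP IP stood apart, with a log2 difference from input of 1.01 ± 0.18 (adjusted p = 0.00818). Its other probe was higher than input in both IPs, by 2.87 in the PABP1 IP (adjusted p = 0.00385) and 3.60 in the GFP IP (adjusted p = 0.00282). Rab31, also called Rab22b, which acts between the trans-Golgi network and endosomes, behaved alike, with 0.980 and 0.906, then 0.959 and 0.937, then 1.71 and 1.96, and a difference of 0.96 ± 0.16. Rab7, of late endosomes, rose in both IPs: 3.54 and 3.29 in the input, 7.05 and 5.78 in the PABP1 IP, and 6.59 and 7.31 in the GFP IP, where the IPs overlap. These 3 calls against input (Rab5a, Rab31 and Rab7) were lost without input replicate 2, with adjusted p of 0.0592, 0.0522 and 0.0535. Without that array the count of higher Rab genes fell to 9, and without input replicate 1 to 12.

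Rab27a, of secretory lysosome-like granules, was dim but rose: 0.219 and 0.248 in the input, 0.295 and 0.294 in the PABP1 IP and 0.860 and 0.585 in the GFP IP, a log2 difference from input of 1.61 ± 0.23 (adjusted p = 0.00418). With normexp background correction this call against input was lost. Rab28, a less studied farnesylated Rab of cilia, was 1.73 ± 0.16 higher in the GFP IP than in the input (adjusted p = 0.00185). Rab39 was below background in the input and entered the test only through the GFP IP, where it is high. Its GFP IP level is given as at least 1.37-fold higher. The adjusted p of 0.0128 (limma) rests on input values below background and is no support for the rise. This call was lost without GFP IP replicate 1 or input replicate 2, and the Rab39 difference was -0.38 with normexp. Rab2, the remaining gene called higher, had a difference of 0.64 ± 0.17 (adjusted p = 0.0238), lost without any of the 4 arrays compared, while its other probe gave 2.89.

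The 8 lower genes were 3 of the ER and Golgi, 3 of secretory vesicles and the plasma membrane, 1 of early and recycling endosomes and 1 of late endosomes and lysosomes. Rab37, of mast cell and other secretory granules, had scaled signals of 0.197 and 0.186 in the input, 0.291 and 0.307 in the PABP1 IP and 0.0913 and 0.0731 in the GFP IP. This gene was dim, though well above background on all 6 arrays. Before scaling its processed signal was 12.1 and 13.5 in the input and 13.7 and 11.4 in the GFP IP. After scaling Rab37 was 1.23 lower on the log2 scale in the GFP IP than in the input (limma, log2 difference -1.23 ± 0.18, adjusted p = 0.00429). Rab33a, a Golgi Rab, had 1.04 and 0.974 in the input, 2.28 and 2.55 in the PABP1 IP and 0.389 and 0.481 in the GFP IP, a difference from input of -1.22 ± 0.18 (adjusted p = 0.00458). Rab8a, which delivers membrane to the cell surface and cilia, had 5.12 and 5.74 in the input, 6.74 and 5.45 in the PABP1 IP and 2.51 and 2.59 in the GFP IP. For Rab8a input and PABP1 IP overlap and the GFP IP lies below both, with a difference from input of -1.09 ± 0.18 (adjusted p = 0.00606). Its other probe gave -0.36 (adjusted p = 0.145) for GFP IP against input and 0.91 (adjusted p = 0.00971) for PABP1 IP against input. Rab34, of Golgi and cilia, had a difference of -1.03 ± 0.17 (adjusted p = 0.00622), lost without input replicate 1 (adjusted p = 0.0521), and its other probe gave 0.22. The other 4 lower genes, Rab25, Rab19, Rab26 and Rab24, had differences from -0.84 to -0.52, and each lost its call without at least 3 of the 4 arrays compared.

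The second comparison asked which Rab mRNAs were higher in RNA bound to PABP1 than in total RNA, which serves as a background for the GFP IP. Here 30 of 48 Rab genes (62.5%) were higher and 2 (4.17%) lower, against 30.1% higher and 23.8% lower over all genes (limma, adjusted p under 0.05). The median log2 difference was 0.97 over the Rab genes and 0.12 over all genes. The genes came from every compartment: 8 of 13 ER and Golgi Rabs, 10 of 16 of early and recycling endosomes, 4 of 7 of late endosomes and lysosomes, 7 of 9 of secretory vesicles and the plasma membrane, and 1 of the other 3 rose. Of these 30 calls 25 also passed with each of 4 other scalings, and 20 passed with any array left out. Without input replicate 2 the count was 20. With the spike-in controls as scale 47 were called higher and 0 lower.

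Rab28 changed most, with scaled signals of 0.633 and 0.623 in the input, 4.06 and 3.73 in the PABP1 IP and 2.19 and 1.98 in the GFP IP. It was higher in both IPs than in the input and highest in the PABP1 IP. The log2 difference between PABP1 IP and input was 2.63 ± 0.16 (adjusted p = 0.000857), or 6.20-fold, and 2.89 by its other probe.

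Rab4a had scaled signals of 2.61 and 2.36 in the input, 13.2 and 15.1 in the PABP1 IP and 6.41 and 4.51 in the GFP IP. Rab4b had 4.39 and 4.38, then 17.7 and 15.2, then 8.93 and 8.08. Rab21 had 1.21 and 1.11, then 5.90 and 4.84, then 3.09 and 3.24. In each of these 3 genes the GFP IP lay between the input and the PABP1 IP and overlapped neither by the probe used, while the other Rab21 probe put the GFP IP 0.97 above the PABP1 IP (adjusted p = 0.0304). Their differences between PABP1 IP and input were 2.51 ± 0.22, 1.91 ± 0.17 and 2.20 ± 0.17 on the log2 scale (adjusted p = 0.00118, 0.00112 and 0.000993).

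Other Rabs passed against the input in the PABP1 IP and not in the GFP IP, and were lower in the GFP IP than in the PABP1 IP. Rab38, of melanosomes and other lysosome-related organelles, had scaled signals of 0.468 and 0.391 in the input, 1.65 and 1.51 in the PABP1 IP and 0.340 and 0.327 in the GFP IP, a difference between PABP1 IP and input of 1.88 ± 0.17 (adjusted p = 0.00120). Rab9, which returns cargo from late endosomes to the Golgi, had 7.23 and 6.90, then 24.3 and 21.3, then 7.07 and 8.65, a difference of 1.69 ± 0.18 (adjusted p = 0.00162). For Rab9 the GFP IP overlapped the input, and the PABP1 IP was apart from both. Rab3d, of exocrine secretory granules, had 0.834 and 0.826, then 2.59 and 2.65, then 0.820 and 0.955, a difference of 1.66 ± 0.16 (adjusted p = 0.00131), with 0.29 (adjusted p = 0.579) by its other probe. Rab13, of tight junctions, was below background in the input and was at least 2.46-fold higher in the PABP1 IP (adjusted p = 0.00571), but its difference was -0.06 with normexp.

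The 2 genes called lower in the PABP1 IP were Rab22a and Rab6b. Rab22a, of early endosomes, had scaled signals of 1.23 and 1.35 in the input, 0.312 and 0.350 in the PABP1 IP and 1.43 and 1.42 in the GFP IP by its brightest probe. The PABP1 IP stood apart below the other groups, with a difference from input of -1.97 ± 0.16 (adjusted p = 0.00100). The other 2 Rab22a probes gave 1.5 (adjusted p = 0.00570) and 0.33 (adjusted p = 0.151), and the mean of the 3 probes -0.05 (adjusted p = 0.827), so the direction depends on the probe. Rab6b, the brain-rich relative of Rab6, had a difference of -0.67 ± 0.22 (adjusted p = 0.0460), lost without any of 5 of the 6 arrays, and 0.51 by its other probe. With the spike-in scale neither was lower: the differences were 0.28 and 1.57.

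The third comparison set the GFP IP against the PABP1 IP, both of which hold RNA recovered after crosslinking. The share of higher genes was near that of the array: 10 of 48 Rab genes (20.8%) were higher in the GFP IP, against 22.3% of all genes. Lower calls were more frequent than over all genes, with 31 (64.6%) against 41.3%, and the median log2 difference was -0.87 over the Rab genes and -0.58 over all genes. The split of 10 higher and 31 lower became 12 and 18 with cyclic loess, 10 and 15 with the median scale and 0 and 33 with the spike-in scale. These scalings moved the median of all genes by 0.53, 0.39 and -1.33 on the log2 scale. All 10 higher calls were kept with the quantile, cyclic loess and median scales, with normexp and without any 1 array, and all were lost with the spike-in scale. Of the 31 lower calls 14 were kept with all 4 scalings.

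**Figure D2:**
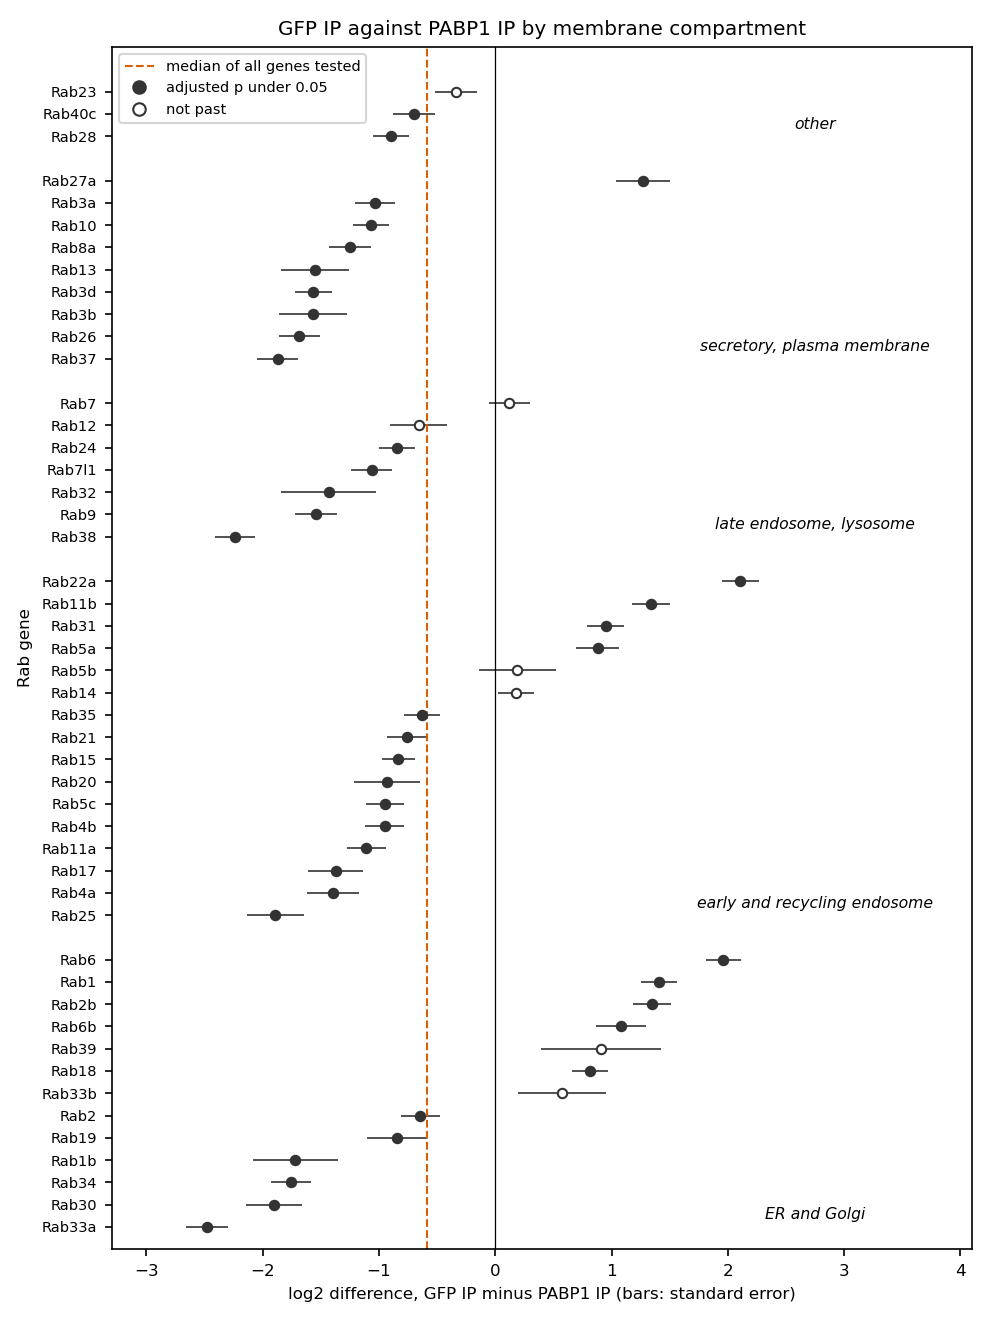
Log2 difference between GFP IP and PABP1 IP (x axis) for the 48 Rab genes tested, in rows grouped by compartment; bars are standard errors from limma, filled points passed an adjusted p of 0.05, and the dashed line marks the median of all genes tested. Of 9 secretory Rabs 8 lie to the left of 0 and past the threshold, while the 13 ER and Golgi Rabs fall on both sides.

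Over all genes 22.3% were higher and 41.3% lower in the GFP IP than in the PABP1 IP. By compartment, 5 of 13 ER and Golgi Rabs were higher (38.5%) and 6 lower (46.2%), with a median log2 difference of 0.58. This median is the value of Rab33b, a dim gene below background in the input that did not pass (limma, adjusted p = 0.228). The genes next to it in rank were Rab2 at -0.64 and Rab18 at 0.81, so the median does not describe the group as a whole. Of 16 Rabs of early and recycling endosomes 4 were higher (25%) and 10 lower (62.5%), with a median of -0.80. Of 7 late endosome and lysosome Rabs 0 were higher and 5 lower (71.4%), with a median of -1.06. Of 9 secretory and plasma membrane Rabs 1 was higher (11.1%) and 8 lower (88.9%), with a median of -1.55. Of the other 3 Rabs 0 were higher and 2 lower. Measured from the all-gene median, a distance that no constant scale alters, these medians were 1.16 above for the ER and Golgi, and -0.21, -0.48, -0.96 and -0.11 for the groups that follow. No test compares the compartments. Of the lower ER and Golgi calls, Rab30, Rab33a and Rab34 alone were kept with all 4 other scalings. Of those of early and recycling endosomes Rab17 and Rab25 alone were kept, and of those of late endosomes Rab9 and Rab38. All lower secretory calls but that of Rab3a were kept.

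On the higher side stood Rab22a, with a difference of 2.11 ± 0.16 (adjusted p = 0.000507), or 4.31-fold. Its value rests on the probe: the other 2 gave -1.59 (adjusted p = 0.00385) and 0.61, and with the mean of the probes the difference was 0.38 (adjusted p = 0.0815). Rab6 followed, with 1.96 ± 0.15 (adjusted p = 0.000516), or 3.90-fold, and 1.62 by its other probe. Rab1 was 2.66-fold higher (1.41 ± 0.16, adjusted p = 0.00112; other probe 1.89) and Rab2b 2.55-fold (1.35 ± 0.16, adjusted p = 0.00152; other probe 1.91). These 3 genes of the ER and Golgi passed by both of their probes.

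Rab11b was 1.34 ± 0.16 higher by the probe used, and its other probe gave 0.49 (adjusted p = 0.111). Rab27a was 1.27 ± 0.23, Rab31 0.95 ± 0.16 and Rab18 0.81 ± 0.15 higher on the log2 scale. Rab18 also passed by its other probe, at 0.59 (adjusted p = 0.0212), and Rab27a and Rab31 have no further probe above background. Rab6b was 1.08 ± 0.22 and Rab5a 0.88 ± 0.18 higher, with 0.39 and 0.73 by their other probes, which did not pass.

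On the lower side Rab33a, with the values above, had the largest difference of the Rab genes, -2.48 ± 0.18 (adjusted p = 0.000494), or 5.57-fold, and Rab38 followed with -2.24 ± 0.17 (adjusted p = 0.000510), or 4.73-fold. Rab30, a Golgi Rab, had scaled signals of 0.414 and 0.376 in the input, 1.14 and 1.08 in the PABP1 IP and 0.364 and 0.240 in the GFP IP, a difference between the IPs of -1.90 ± 0.24 (adjusted p = 0.00165). Rab25, an epithelial relative of Rab11, had 0.904 and 0.740, then 1.85 and 1.56, then 0.383 and 0.548, a difference of -1.89 ± 0.24 (adjusted p = 0.00182). For Rab25 the PABP1 IP lay above the input and the GFP IP below it. Rab37, a dim gene, had a difference of -1.87 ± 0.18 (limma, adjusted p = 0.000761).

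Rab34 had scaled signals of 20.2 and 19.6 in the input, 36.3 and 30.0 in the PABP1 IP and 10.1 and 9.42 in the GFP IP, a difference between the IPs of -1.76 ± 0.17 (adjusted p = 0.000797), and -1.78 by its other probe. Rab26, of secretory granules, had 3.03 and 2.92, then 6.76 and 5.50, then 1.81 and 1.98, a difference of -1.69 ± 0.18 (adjusted p = 0.000954). In both, by the probes used, the GFP IP was below the input and the PABP1 IP above it. Against the input their lower calls in the GFP IP, and the higher call of Rab34 in the PABP1 IP, were not kept with all 4 other scalings. The other Rab34 probe put the GFP IP 0.22 above the input. Between the IPs these genes, and Rab33a, Rab38, Rab30, Rab25 and Rab37, stayed lower past the threshold with all 4 other scalings.

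The other 24 lower genes had differences from -1.72 to -0.63. They include the secretory Rab3a, Rab3b, Rab3d, Rab8a, Rab10 and Rab13, the endosomal Rab4a, Rab4b, Rab5c, Rab11a, Rab15, Rab17, Rab20, Rab21 and Rab35, and the late endosomal Rab7l1, Rab9, Rab24 and Rab32. The calls of Rab32, Rab35, Rab19, Rab20, Rab40c, Rab2 and Rab21 were each lost without at least 2 of the single arrays, with adjusted p up to 0.109, 0.0703, 0.120, 0.129, 0.0810, 0.0833 and 0.0562. Rab32 entered the test only through the PABP1 IP, where it is high, and was well above background on 1 GFP IP array. The 7 genes that did not pass were Rab39, Rab33b, Rab5b, Rab14, Rab7, Rab23 and Rab12. Rab7 differed by 0.12 ± 0.18 (adjusted p = 0.570), and its other probe gave 0.04.

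The 6 arrays lie on 2 slides: slide 2 carries GFP IP replicate 1 with PABP1 IP replicate 2, and slide 1 the other 4 arrays, the input among them. Within each slide, with 1 array of each IP, all 10 higher and all 31 lower genes kept the sign of their difference between the IPs, as did the 7 that did not pass. The difference tested is the mean of the 2 within-slide differences, so called genes keep their sign nearly by construction. The slides are therefore no independent support for the calls. The median difference of the higher genes was 1.15 on slide 1 and 1.38 on slide 2, and that of the lower genes was -1.23 and -1.12. Slide 2 holds no input array. With slide as a block the counts were 15 higher and 9 lower in GFP IP against input, 31 and 2 in PABP1 IP against input, and 10 and 32 between the IPs.

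Close relatives within a subfamily differed in how the IPs stood to each other. Rab1 was higher and Rab1b lower in the GFP IP than in the PABP1 IP: Rab1b had scaled signals of 18.4 and 14.6 in the input, 30.3 and 38.0 in the PABP1 IP and 14.5 and 7.31 in the GFP IP, a difference between the IPs of -1.72 ± 0.36 (adjusted p = 0.0100), and -2.12 by its other probe. Its GFP IP replicates differed from each other more than those of Rab1. Rab11b was higher in the GFP IP, while Rab11a had 5.33 and 6.16 in the input, 16.3 and 14.7 in the PABP1 IP and 6.80 and 7.56 in the GFP IP, a difference between the IPs of -1.11 ± 0.17 (adjusted p = 0.00325), and -1.81 by its other probe. For Rab11a the PABP1 IP stood apart and the GFP IP did not pass against the input (0.32 ± 0.17, adjusted p = 0.156). Rab25, of the same subfamily, was lower as well.

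In the Rab5 group, Rab5a was higher in the GFP IP than in the PABP1 IP and Rab5c was lower. Rab5c had scaled signals of 16.5 and 15.6 in the input, 30.7 and 26.0 in the PABP1 IP and 14.8 and 14.4 in the GFP IP, a difference between the IPs of -0.95 ± 0.16 (adjusted p = 0.00485). The Rab5b probe was near background, below 0.0847 on every array. Rab22a and Rab31, and Rab6 and Rab6b, were higher in the GFP IP in both members of each group by the probes used, though for Rab22a another probe gave -1.59. Rab4a and Rab4b, and Rab3a, Rab3b and Rab3d, were lower in every member. The lower calls of Rab1b, Rab11a, Rab5c, Rab4a, Rab4b and Rab3a were not kept with all of the quantile, cyclic loess and median scales. The higher calls, among them Rab1, Rab11b and Rab5a, were all lost with the spike-in scale, where the sign of Rab5a turned. The differences between relatives were not tested against each other.

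Rab2 and Rab2b gave opposite calls between the IPs by their brightest probes. Rab2 had 12.0 and 12.5 in the input, 32.4 and 27.6 in the PABP1 IP and 18.3 and 20 in the GFP IP, a difference between the IPs of -0.64 ± 0.17 (adjusted p = 0.0197). Its other probe gave 0.85 (adjusted p = 0.00912), so for Rab2 the order of the IPs depends on the probe, while both probes lay above the input in both IPs.

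**Figure D3:**
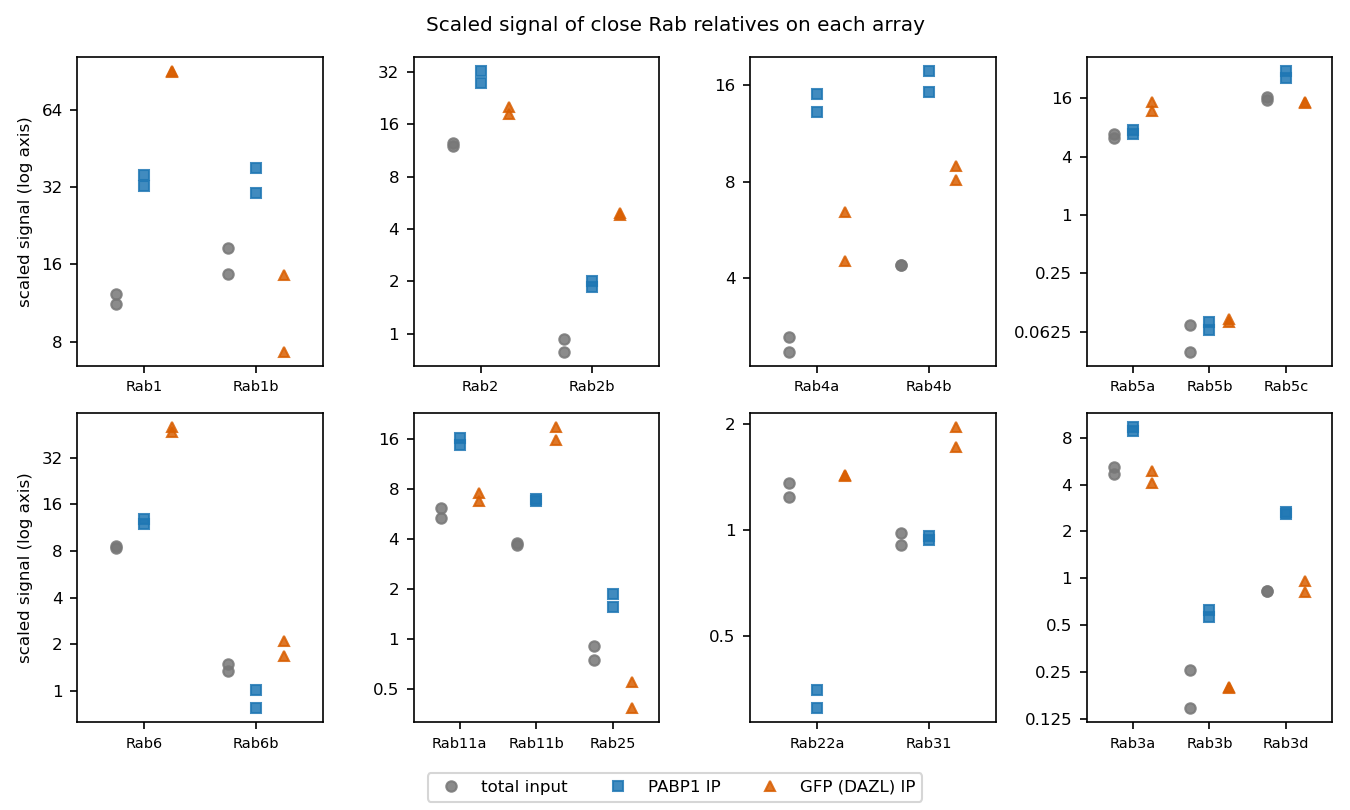
Scaled signal (y axis, log scale, processed signal over the 75th percentile of the array) of close Rab relatives on each of the 6 arrays; circles are input, squares PABP1 IP and triangles GFP IP. Rab1 has its GFP IP values at 90.0 and 90.4, above the PABP1 IP, while Rab1b has them at 14.5 and 7.31, below it, and Rab11b and Rab11a differ in the same way.

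The array reads some genes with several probes, and 22 tested Rab genes have at least 2 probes above background. Their probes had the same sign in 16 of 22 genes in each of the 3 comparisons. Between the IPs, 4 genes had probes past the threshold in opposite directions: Rab2, Rab10, Rab21 and Rab22a. Rab10, which delivers glucose transporters and membrane to the cell surface, gave -1.07 and -1.10 by a pair of probes and 1.74 by the third, and Rab21 gave -0.76 by the probe used and 0.97 by its other probe. Rab14, of endosomes and Golgi, gave -0.03, 1.05 and -3.66 between GFP IP and input, the widest range in that comparison at 4.71. Rab23, a negative regulator of Hedgehog signalling, did not pass by the probe used (-0.34 ± 0.18 between the IPs), and 1 of its other probes gave 2.10 (adjusted p = 0.00102). Which transcript forms the probes read was not tested.

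**Figure D4:**
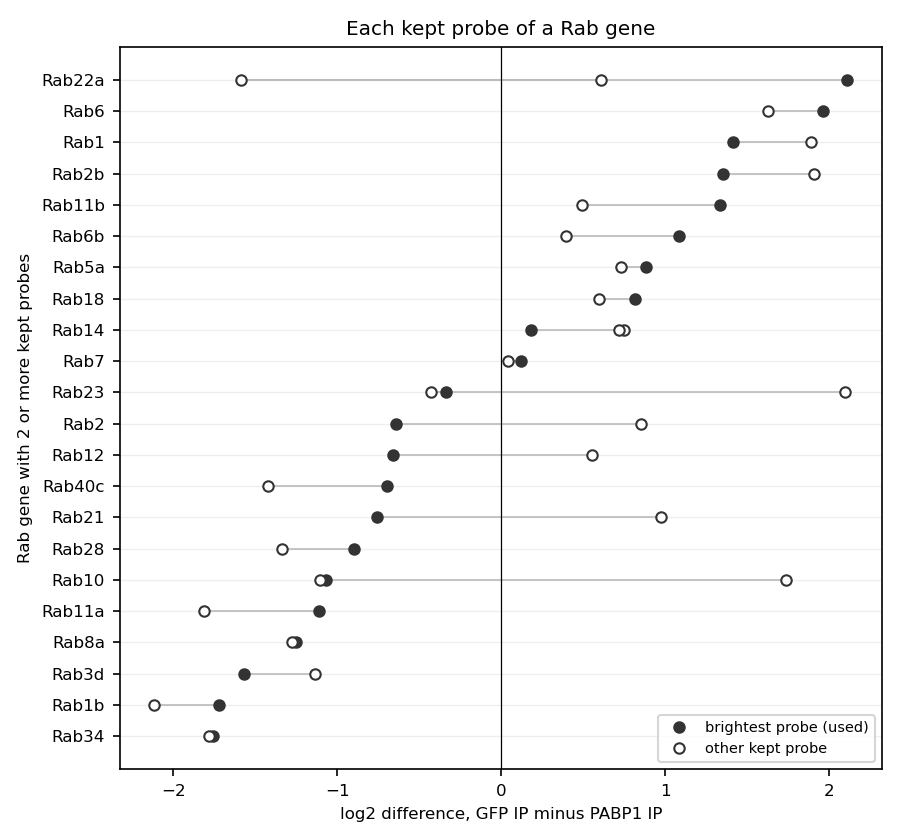
Log2 difference between GFP IP and PABP1 IP (x axis) for every probe above background of the Rab genes with at least 2 such probes, genes in rows; filled points are the probe used and open points the others. The probes of Rab22a span 3.69, from -1.59 to 2.11, while both probes of Rab1, Rab6 and Rab2b lie to the right of 0.

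Of the 55 Rab genes 7 were not tested. Rab27b, Rab36, Rab39b, Rab3c, Rab40b and Rab9b were not well above background on any array, with scaled signals of at most 0.0496. Rab8b was well above background on 1 array by its brightest probe. A second Rab8b probe was above background and gave 1.74 between GFP IP and input (adjusted p = 0.0106) and 2.10 between the IPs (adjusted p = 0.00402), in the direction opposite to Rab8a.

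The regulators and effectors of Rabs were counted from 4 lists. Of 7 tested genes (of 8) for prenylation and GDP dissociation inhibition, 4 were higher and 1 lower in the PABP1 IP than in the input, 2 and 3 in the GFP IP than in the input, and 1 and 6 in the GFP IP than in the PABP1 IP. The last split was 1 and 3 with the quantile and cyclic loess scales. The shares over all genes given for each comparison are the background for these counts and for those of the lists that follow. Rabggtb, the catalytic subunit of Rab geranylgeranyl transferase, was higher than input in both IPs (1.86 ± 0.15 and 1.00 ± 0.15 on the log2 scale). The gene for the escort protein, Chm, went the other way in the PABP1 IP, at -2.76 ± 0.42 against input (adjusted p = 0.00414), and was 2.24 ± 0.42 higher in the GFP IP than in the PABP1 IP. With the spike-in scale both of these Chm calls were lost, at -0.52 and 0.91. Rabac1, a Rab acceptor of the Golgi, was lower in the GFP IP than in the PABP1 IP, at -2.01 ± 0.17, but at -0.64 with quantile and -0.60 with cyclic loess normalization.

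Of 34 tested GEF genes (of 38), 6 were higher and 13 lower in GFP IP against input, 12 and 11 in PABP1 IP against input, and 9 and 14 in GFP IP against PABP1 IP. Against input in the GFP IP these are shares near the 18.5% and 36.6% of all genes. Between the IPs they are likewise near the all-gene 22.3% and 41.3%. In PABP1 IP against input 30.1% and 23.8% of all genes were higher and lower. The split between the IPs was 13 and 12 with cyclic loess and 0 and 21 with the spike-in scale. In both comparisons that hold the PABP1 IP the largest change was in a subunit of TRAPP, the complex that activates Rab1. Between the IPs the GEF gene with the largest rise was Dennd6a, at 2.54 ± 0.18. Trappc1 and Trappc2l, read by 1 probe above background each, were higher in the PABP1 IP than in the input (2.55 ± 0.15 and 2.30 ± 0.21). They were lower in the GFP IP than in the PABP1 IP (-2.95 ± 0.15 and -3.27 ± 0.21, adjusted p = 0.000459 for both). Between the IPs these subunits and Rab1 had opposite signs, also with the spike-in scale, where the call of Rab1 was lost (0.085). Rab1b had the same sign as these subunits, at -1.72 ± 0.36 and -2.12 by its other probe. Trappc6b was 8.09-fold higher in the PABP1 IP than in the input (3.02 ± 0.16, adjusted p = 0.000857; other probe 3.59).

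Of 33 tested GAP genes (of 38), 6 were higher and 12 lower in GFP IP against input, 6 and 10 in PABP1 IP against input, and 10 and 8 between the IPs (1 and 16 with the spike-in scale). In GFP IP against input these shares too are near the 18.5% and 36.6% of all genes. The all-gene shares were 30.1% and 23.8% in PABP1 IP against input, and 22.3% and 41.3% between the IPs. Evi5, a GAP linked to Rab11 and cell division, was higher in the GFP IP than in the input (2.25 ± 0.15, adjusted p = 0.00144) and than in the PABP1 IP (2.84 ± 0.15, adjusted p = 0.000459), and its other probe gave 0.79 and 1.51. Evi5l, its relative, was lower in the GFP IP than in the PABP1 IP (-2.17 ± 0.16).

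Of 36 tested effector genes (of 47), 3 were higher and 16 lower in GFP IP against input, 1 and 23 in PABP1 IP against input, and 16 and 5 between the IPs. Over all genes 18.5% and 36.6%, 30.1% and 23.8%, and 22.3% and 41.3% were higher and lower in the same order. The median log2 difference between PABP1 IP and input was -0.77 over the effectors, beside 0.97 over the Rab genes and 0.12 over all genes. With the spike-in scale, which moved the median of all genes by 2.24, it was 1.48, with 20 effectors higher and 0 lower, so the sign of the effectors against input depends on the scale. Between the IPs that scale gave 2 higher and 16 lower. Golga2, a Golgi tether that binds Rab1, was lower than input in both IPs (-2.19 ± 0.16 in the PABP1 IP and -1.46 ± 0.16 in the GFP IP), but at 0.06 and -0.54 with the spike-in scale, which did not pass. Appl1, an effector of Rab5 on early endosomes, was 3.35 ± 0.14 higher in the GFP IP than in the PABP1 IP by its brightest probe and -0.35 by the other, and Exoc6, an exocyst subunit that binds Rab11, gave 2.78 ± 0.16 and 0.08. Their values therefore rest on 1 probe.

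**Figure D5:**
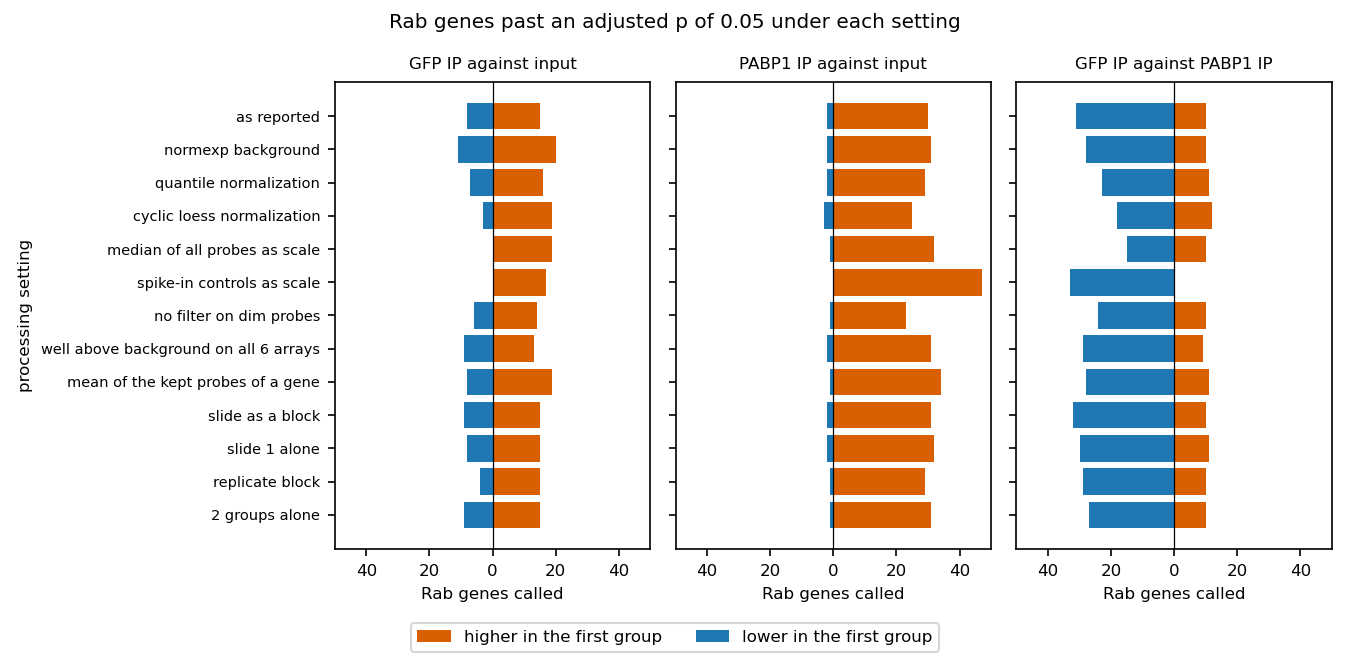
Number of Rab genes past an adjusted p of 0.05 (x axis, higher to the right of 0 and lower to the left) under each processing setting (rows), in a panel for each comparison. The PABP1 IP has more higher than lower Rab genes against input under every setting shown, while the lower calls of GFP IP against input fall to 0 with the median and spike-in scales and the higher calls between the IPs fall to 0 with the spike-in scale.

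In the authors' deposited table of group means, the called Rab genes with a single matching row were compared by the sign of their ratio. The signs were the same for 5 of 5 higher and 3 of 5 lower genes in GFP IP against input, 15 of 17 higher genes in PABP1 IP against input, and 1 of 1 higher and 19 of 20 lower genes between the IPs.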

How the data were processed

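Each of the 6 samples is a one-colour Agilent mouse whole-genome array. Per the file headers, the deposited files hold the intensity of each spot and its background-subtracted processed signal from Feature Extraction 9.1.3.1, with flags for spots well above background, saturated or outlying. The authors also deposited a table of group means of signal, used for signs only. The aligner and genome build do not apply, and no coordinates are printed.

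Outlier spots were left out, which removed 6 genes, and spots of a probe were averaged as log2 processed signal minus the array's 75th percentile. Accessions were matched to RefSeq gene names of GRCm38.p6, which named 22951 of 41174 probes, and 4521 more shared such a name. The brightest probe read each gene, and the gene was tested where that probe stood well above background in both replicates of a group. limma 3.58.1 in R 4.3.3 (lmFit, eBayes) was fitted to all 6 arrays with group alone, leaving 3 residual degrees of freedom. Two-sided p-values were Benjamini-Hochberg adjusted over 14962 genes, with a threshold of 0.05. Values after ± are limma standard errors. Where the dimmer group was below background, the fold is a bound: the brighter group's mean over whichever is higher on each array, the dim probe or the weakest probe well above background.

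Array values were given for most of the members with the largest called differences (up to 8 a direction), for close relatives and for some others, such as Rab7. The members and the lists (4 lists of regulators and effectors, 5 of cell markers) were chosen with earlier results of these data known. Alternatives covered background, scaling, filter, probe choice, slide, replicate number and single arrays. The number of arrays limits the precision.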

Additional observations from a re-analysis of the deposited data

How the results depend on the processing

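The counts of Rab genes were recomputed under 19 other settings. Main counts were 15 higher and 8 lower in GFP IP against input, 30 and 2 in PABP1 IP against input, and 10 and 31 between the IPs. The median over Rab genes was positive in both comparisons with input and negative between the IPs in every setting. With the spike-in scale (8 control probes) the counts were 17 and 0, 47 and 0, and 0 and 33. With the median scale the lower counts were 0, 1 and 15, and with cyclic loess 3, 3 and 18. The lower count of PABP1 IP against input was 1 with no filter on dim probes, with the mean of the probes and with the 2 groups fitted alone. Leaving out single arrays gave 9 to 15 higher and 3 to 9 lower in GFP IP against input, 20 to 31 and 1 to 2 in PABP1 IP against input, and 10 to 11 and 25 to 30 between the IPs. Signs turned with the spike-in scale for Rab19 (0.13), Rab24 (0.40), Rab25 (0.083) and Rab26 (0.27) in GFP IP against input, for Rab22a (0.28) and Rab6b (1.57) in PABP1 IP against input, and for Rab5a (-0.45), Rab18 (-0.51), Rab27a (-0.057), Rab31 (-0.38) and Rab6b (-0.24) between the IPs. They turned with normexp for Rab24 (0.044) and Rab39 (-0.38) in GFP IP against input and for Rab13 (-0.064) and Rab37 (-0.13) in PABP1 IP against input, and with the median scale for Rab24 (0.061). Between the IPs they turned with cyclic loess for Rab2 (0.17), Rab24 (0.0061), Rab35 (0.21) and Rab40c (0.13), and with the mean of the probes for Rab2 (0.10) and Rab21 (0.11). The cause was not tested. Replicate numbers did not pair the samples (correlations of deviations 0.20, -0.06 and -0.65): with the replicate block the counts were 15 and 4, 29 and 1, and 10 and 29. A crossed pairing of the IPs, chosen after seeing the data, gave 12 and 32. Rab13, Rab32, Rab33b, Rab39 and Rab5b were below background in the input, and their differences from it are bounds at best.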
